A study of Mus musculus with 4 samples.

Results

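The regions described here are stretches of open chromatin inside genes that were found in double-positive (DP) but not in double-negative (DN) mouse thymocytes. Peaks of 4 ATAC-seq lists on chromosomes 1 to 19 and X were merged into regions where they shared at least 1 bp. A region was kept when both DP lists and neither DN list held a peak in it, and when its midpoint lay inside a RefSeq protein-coding gene span and more than 1000 bp from the end of any such span. This left 3207 regions of the 107607 merged regions of the series. They were 8.31% of the 38594 merged regions that lay inside genes by the same distance rule. Without the rule on position, 8003 regions (7.44% of all) were DP-only. The opposite class, held by both DN lists and no DP list, numbered 1081 inside genes, 2.80% of the regions there. The regions were chosen by presence in these lists, so their numbers and the fact that they carry DP peaks are descriptions and were not tested.

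ATAC-seq marks accessible DNA by the insertion of a transposase, and the labels call the material nucleosome-free. All 4 samples were cells sorted from the thymus of wild-type C57BL/6J mice of 5 to 7 weeks and processed directly after the sort, with no treatment. The 2 DN samples were CD4-CD8- cells gated as CD25+CD44-/+, and the 2 DP samples were CD4+CD8+ cells. The labels do not tell whether replicates are different animals, so their spread may be only technical. The lists of DN 1, DN 2, DP 1 and DP 2 held 38794, 33118, 39696 and 70365 peaks. They carry no read counts, so the depth is unknown. Where a list lacks a peak, closed chromatin and too few reads cannot be told apart. The length of the DP 2 list and the short DN 2 list therefore bear on every count below.

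Genes listed for DP thymocytes held more peaks in both DP lists than in either DN list. Genes of CD25+ DN cells did not set the DN lists apart. At 6 genes listed for DP thymocytes (Cd4, Cd8a, Cd8b1, Rag1, Rag2 and Ccr9), counted over the gene and 1 kb on either side, the 4 lists held 3, 3, 26 and 22 peaks in the order DN 1, DN 2, DP 1, DP 2. Rag1 and Rag2, the recombinase genes, also serve the beta chain rearrangement of DN cells, and each had 1 peak in either DN list. These 6 genes held 9 of the DP-only regions described here, which were chosen for a lack of DN peaks. At 6 genes of CD25+ DN cells (Il2ra, Ptcra, Notch1, Dtx1, Hes1 and Erg) the lists held 12, 2, 14 and 18. DN 2 held a peak at 1 of those 6 genes, Erg, and none at Il2ra, where the other lists held 5, 6 and 6. Lists of 4 genes each for B, myeloid, NK, erythroid and stromal cells had at most 5 peaks in any list, and myeloid genes had 0, 0, 1 and 1. The part of other cell types in the results below was not tested.

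DN and DP cells are successive stages of T cell development in the thymus. At the DN stage the T cell receptor beta chain is rearranged, and cells that pass its checkpoint divide, begin to express CD4 and CD8 and rearrange the alpha chain as DP cells. Open chromatin inside a gene can hold an enhancer of that gene or of a neighbour, a second start site or other regulatory DNA, and E proteins, RUNX, ETS, Ikaros and TCF family factors are known to bind such elements in thymocytes.

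A minority of the regions hold an annotated transcription start that lies inside the span of a longer gene model. RefSeq starts were taken from a table of promoter windows of GRCm38.p6, the same build as the peaks (mm10). Of the 3207 regions, 255 (7.95%) held 314 such starts, and in 232 of them a start belonged to the gene around the region. The 250 bases before the start are shown for 5 regions, because each lies at an annotated start inside the span of a gene with a known part in thymocyte development. Bcl2l11 encodes the death protein BIM, Lef1 a TCF family factor, Ikzf1 the factor Ikaros, Ccnd3 the cyclin D3 that thymocytes use to divide, and Satb1 a chromatin organiser of thymocytes. Each sequence runs 5′ to 3′ toward the start, which follows its last base. Capitals mark every match, on either strand, to the letters of any of the 15 motifs listed further on.
Bcl2l11, chr2:128127325-128127574, plus strand: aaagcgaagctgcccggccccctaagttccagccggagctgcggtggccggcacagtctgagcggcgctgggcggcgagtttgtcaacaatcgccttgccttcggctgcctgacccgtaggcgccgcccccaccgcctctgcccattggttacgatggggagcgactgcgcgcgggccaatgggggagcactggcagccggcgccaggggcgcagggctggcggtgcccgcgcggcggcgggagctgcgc
Lef1, chr3:131112541-131112790, plus strand: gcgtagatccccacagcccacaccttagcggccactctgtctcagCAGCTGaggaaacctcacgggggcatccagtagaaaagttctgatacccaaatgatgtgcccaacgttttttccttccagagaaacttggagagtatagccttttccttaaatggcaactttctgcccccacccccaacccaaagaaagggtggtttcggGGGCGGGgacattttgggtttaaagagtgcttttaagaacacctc
Ikzf1, chr11:11689927-11690176, plus strand: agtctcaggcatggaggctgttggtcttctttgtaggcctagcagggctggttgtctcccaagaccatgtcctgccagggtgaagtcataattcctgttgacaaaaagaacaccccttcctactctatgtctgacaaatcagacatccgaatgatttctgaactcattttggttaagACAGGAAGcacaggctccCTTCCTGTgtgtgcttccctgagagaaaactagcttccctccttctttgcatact
Ccnd3, chr17:47593217-47593466, plus strand: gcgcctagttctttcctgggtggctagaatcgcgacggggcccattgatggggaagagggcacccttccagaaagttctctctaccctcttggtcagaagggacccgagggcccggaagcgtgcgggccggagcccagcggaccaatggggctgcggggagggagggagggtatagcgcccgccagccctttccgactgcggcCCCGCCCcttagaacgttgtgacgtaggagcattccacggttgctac
Satb1, chr17:51826589-51826838, minus strand: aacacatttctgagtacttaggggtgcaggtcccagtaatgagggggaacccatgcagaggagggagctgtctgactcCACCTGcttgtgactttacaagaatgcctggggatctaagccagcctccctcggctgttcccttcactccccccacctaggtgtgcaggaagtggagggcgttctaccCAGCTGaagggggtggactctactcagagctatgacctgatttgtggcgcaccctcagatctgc
The Bcl2l11 stretch held none of the 15 motifs. It was rich in GC (73.2%) with 30 CpG, and its start lies 1.54 kb inside the span. The Lef1 stretch held CAGCTG from base 46 and GGGCGGG from base 206, counted from 1 at its 5′ end. The Ikzf1 stretch held ACAGGAAG, the core of an ETS site, from base 178 and on the other strand from base 196, with 1 CpG and 47.6% GC. The Ccnd3 stretch held GGGCGGG on the other strand from base 204, and its start lies 88.4 kb from the 5′ end of the gene's span. The Satb1 stretch held CACCTG from base 79 and CAGCTG from base 187. These are matches of letters, not sites of binding.

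At those 5 starts the lists read as follows. The Bcl2l11 region (chr2:128127101-128128200) had p-values of 1.56e-05 in DP 1 and 1e-12 in DP 2. All p-values of peaks are those of the authors' deposited lists, which end at 4.87e-04 in DP 1 and 8.90e-04 in DP 2, and 1e-12 is the smallest value in any list. The Lef1 region (chr3:131112251-131112900) had 9.24e-05 and 6.91e-05, the Ikzf1 region (chr11:11689901-11691050) 1.26e-04 and 6.57e-05, the Ccnd3 region (chr17:47593151-47593750) 6.53e-05 and 3.64e-05, and the Satb1 region (chr17:51826351-51827000) 1.62e-05 and 6.91e-05. None of them held a DN peak, which is what chose them. A second region of Ikzf1 (chr11:11685801-11686850, 9.12e-06 and 6.57e-05) held a start 0.963 kb inside the span. Own starts also lay in the regions of Dgkz (2 starts), Dnmt1 (2 starts), Kdm2b (2 starts), Stat5b, Bcl2l1, Pim1, Cdk6, E2f2, E2f3, Nfkb2, Nfil3 and Tet3 among the genes listed by role below.

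Regions with a start differed in size and rank from the rest, and the windows at their starts were rich in GC. The 255 regions with a start had a median width of 700 bp, against 600 bp for the others, and their median rank by p was 33.8% of the way down the DP 1 list and 21.9% down the DP 2 list, against 46.2 and 28.7%. Starts lay in 21.2% of the 2107 regions inside genes that all 4 lists held, in 2.13% of the 1081 DN-only ones and in 3.53% of all regions inside genes. The 314 windows, each from 250 bases before to 50 bases from the start, had a median GC share of 61.7%, and 77.4% of them had 10 or more CpG. The corresponding values were 61.3 and 85.0% for the 541 starts in regions of all 4 lists inside genes, and 53.0 and 43.8% for all 32619 starts of the table. In 23 regions the only start was that of another gene, and all 44 other genes with a start in a region were long noncoding RNA genes. The distance rule largely fixes this, since it keeps the regions away from the ends of all protein-coding gene spans.

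The 15 motifs searched in those windows, on both strands, are the letters of known factor families. CAGCTG, an E-box bound by E proteins, was in 20.7% of the 314 windows, 15.3% of the windows in regions of all 4 lists inside genes, 14.0% of those in DP-only regions at gene ends and 16.4% of all windows. GCGTGGGCG, bound by EGR factors, was in 10 windows (3.18%), against 0.739, 1.43 and 0.616% in the same order. So the E-box and EGR letters were more frequent in these windows than in the other 3 sets. GGGCGGG, bound by KLF and SP factors, can share bases with it and was in 44.9, 48.1, 51.1 and 25.7%. The ETS motif CCGGAAGT was in 5.41, 8.69, 12.1 and 3.91%. These letters were less frequent here than in both other sets of open starts. The NFAT motif TGGAAAA was in 1.27, 2.77, 4.01 and 6.77%, and the RUNX motif TGTGGTT in 2.87, 2.59, 3.90 and 5.29%. The MYB motif CAACTG was in 13.1, 9.80, 8.60 and 13.6%, and the GATA motif AGATAA in 7.64, 3.88, 5.39 and 11.2%. The Ikaros motif TGGGAA was in 24.2, 23.7, 22.3 and 25.4%, and the TCF motif CTTTGA in 11.1, 11.8, 11.6 and 16%, so the 3 sets of open starts were close for both. The second E-box CACCTG was in 19.7% of the windows here and 20.3% of all windows, the ETS core ACAGGAAG in 3.18 and 3.6%, the AP-1 motif TGANTCA in 4.78 and 7.85%, the ROR motif TAGGTCA in 1.59 and 2.62% and the POU motif ATGCAAAT in 0.955 and 1.75%. Starts of 1 gene can share bases, so the windows are not independent, and no test was made. The regions without a start were not searched, since no genome sequence was used here.

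Most regions were of middling rank and modest width. The median width was 600 bp, and the quartiles were 550 and 650 bp. The DP 1 and DP 2 peaks shared at least 50% of the shorter one in 3103 regions (96.8%), with midpoints a median of 50 bp apart, which the merging of overlapping peaks largely fixes. The peak was at the largest p-value of its list in 529 regions for DP 1 (16.5%), in 417 for DP 2 (13.0%) and in 127 for both. Regions inside genes that all 4 lists held were wider (median 800 bp), with the largest p-value in 5.13 and 3.23%. DP-only regions at gene ends, whose midpoint lay within 1000 bp of a span end, stood between (650 bp, 10 and 6.40%). DP-only regions outside genes were close to those inside (550 bp, 17.9 and 14.0%).

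Few regions sat beside a DN peak, which the choice of regions without a DN peak partly fixes. The nearest DN peak was a median of 13.4 kb away, and in 145 regions (4.52%) a DN peak had its midpoint within 1000 bp. The class next to this one was large, with 2222 regions inside genes held by both DP lists and exactly 1 DN list, 1859 of them by DN 1 and 363 by DN 2. The DN peak was at the largest p-value of its list in 523 of these. Absence from the DN lists was thus decided mainly by DN 1: leaving DN 1 out raised the number of regions from 3207 to 5074, and leaving DN 2 out raised it to 3570. Inside genes, 4324 regions were held by DP 1 alone and 13700 by DP 2 alone. With DP 2 as the only DP list (DP 1 left out) there were 16984 regions, and with DP 1 as the only one there were 7626. At the distance limit, 39 regions lay within 100 bp beyond it, the nearest (in Impg1) at 1002 bp from a span end, and 52 DP-only regions lay within 100 bp short of it and were left out, the farthest at 999 bp.

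The strongest regions by rank had the smallest p-value, 1e-12, in both DP lists, which was so for 9 regions. The 8 widest of them lay in Eif4e3 (chr6:99643201-99644100), Hs2st1 (chr3:144548051-144548950), Bdh1 (chr16:31429401-31430200), Colq (chr14:31555701-31556500), C2cd5 (chr6:143035001-143035750), Nhsl1 (chr10:18508451-18509150), Tube1 (chr10:39137551-39138250) and Serinc5 (chr13:92659501-92660200). Eif4e3 encodes a relative of the cap-binding factor eIF4E, Hs2st1 a heparan sulfate sulfotransferase and Tube1 epsilon-tubulin. None of these 8 genes was on a list of T cell genes used below. Each region held 1 peak per DP list and was 700 to 900 bp wide, and the nearest DN peak was 1000 bp (Bdh1) to 61075 bp (Colq) away. Regions of 1400 bp lay in Ppp2r5c and Csrnp1. The Ppp2r5c region, in the gene of a regulatory subunit of the phosphatase PP2A, also had p-values of 1e-12 and 3.25e-07.

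DP-only and DN-only regions lay inside genes in like shares. For the DN and DP lists as a whole, 4 lists are too few for a test to show a difference. Inside genes lay 40.1% of the 8003 DP-only regions (Wilson 95% interval 39.0 to 41.2%, counting error only) and 40.0% of the DN-only ones, against 26.5% of the regions of all 4 lists and 35.9% of all regions. The rest differed: 26.4% of DP-only regions lay at gene ends and 33.5% outside genes, against 7.29 and 52.7% of DN-only regions. Of each list's own peaks, 34.4% lay inside genes in DN 1, 30.6% in DN 2, 35.6% in DP 1 and 36.7% in DP 2. Both DP lists were above both DN lists. The mean was 36.1% ± 0.774 (SD, n = 2) for DP and 32.5% ± 2.63 (SD, n = 2) for DN. The difference of 3.63 percentage points gave p = 0.333 in a two-sided exact permutation test over the 4 lists, the smallest value that 6 assignments allow.

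The regions were spread over 2179 genes, 11.4% of the 19190 protein-coding genes with a span over 2 kb, the shortest that could hold one. Of these genes, 1587 held 1 region, 342 held 2 and 250 held 3 or more, and the last group held 967 regions. For 38 regions the midpoint lay in the overlapping spans of 2 genes, and each of these regions counts for both of its genes. Another DP-only region inside a gene lay within 10 kb of 740 regions (23.1%). The genes were longer than most, with a median span of 64.7 kb against 21.3 kb for all genes over 2 kb. The 850 genes with a DN-only region inside were longer still, with a median of 163 kb. Both classes were found in 202 genes, 23.8% of those with a DN-only region. Among all genes of 100 to 200 kb, 28.3% held a DP-only region, so this share was not above that of long genes. The X chromosome held 36 of the regions, 3.43% of its 1051 regions inside genes.

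Longer genes held a DP-only region more often, but fewer per base. The share of genes with 1 or more rose from 4.09% of 9215 genes of 2 to 20 kb to 10.9% at 20 to 50 kb, 19.5% at 50 to 100 kb, 28.3% at 100 to 200 kb and 36.2% of 990 genes over 200 kb. Per Mb of gene span there were 4.82, 4.16, 3.90, 3.69 and 1.75 DP-only regions in the same order. DN-only regions went the other way, from 0.542 to 1.36 per Mb. Regions of all 4 lists ran at 2.41 to 2.64 per Mb up to 200 kb and at 1.30 above it. Genes over 200 kb are therefore where the DP-only excess over DN-only regions was smallest.

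**Figure D1:**
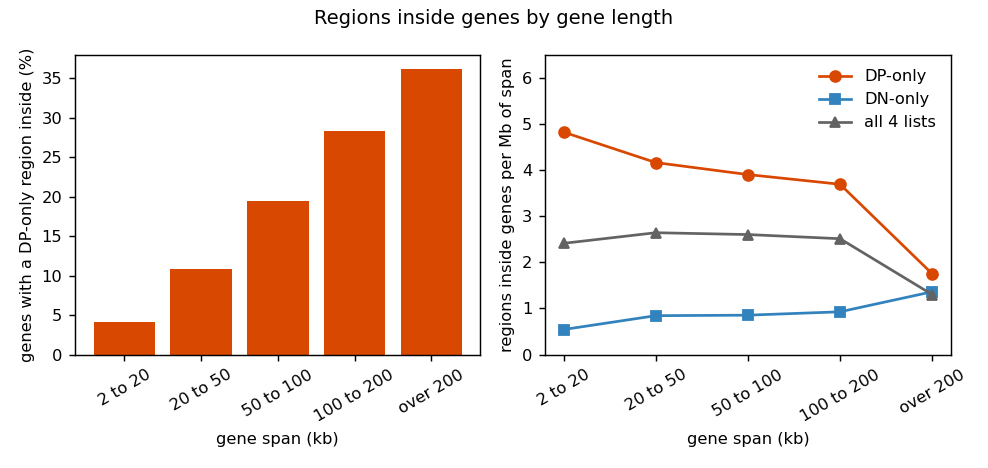
DP-only regions by gene length. Left, bars give the share of genes with at least 1 DP-only region inside for 5 classes of gene span in kb, rising from 4.09 to 36.2%; right, points give regions inside genes per Mb of span for DP-only regions, DN-only regions and regions of all 4 lists, where DP-only regions fall from 4.82 to 1.75 per Mb and DN-only regions rise from 0.542 to 1.36.

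Along the gene the regions were spread broadly, with a mild lean toward the start. The strand was known for the genes of 2564 regions, and there the median distance from the start was 30.7 kb (quartiles 8.94 and 83.0 kb). Here and below, the start of a gene is the 5′ end of its span. Of 17274 genes with a known strand, 10416 had an annotated start within 1 bp of a span end. With the span cut into 10 equal parts, the share fell from 12.2% in the part at the start to 6.98% in the last part. The first 20% of the span held 23.8% and the last 20% held 15.7%. Regions of all 4 lists leaned further toward the start, with 31.4% in the first 20%, and DN-only regions were even, with 20 and 20.7%. Only 16.5% of the DP-only regions lay within 5 kb of the start, against 20.9% of the regions of all 4 lists and 7.38% of the DN-only ones. Counted per region, the median gene span was 91.0 kb for DP-only and 222 kb for DN-only regions. A difference between these classes at equal gene length was not tested. The distance rule leaves out regions within 1000 bp of a span end, which takes more from the end parts of short genes than of long ones.

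**Figure D2:**
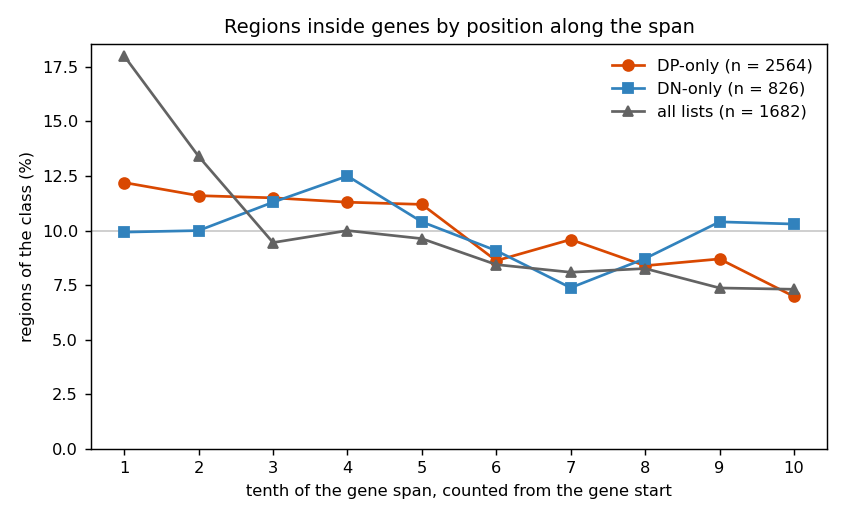
Position of regions along the gene, leaving out those with a midpoint within 1000 bp of a span end. The horizontal axis gives 10 equal parts of the gene span counted from the gene start, the vertical axis the percent of each class there. DP-only regions (n = 2564) go from 12.2% in part 1 to 6.98% in part 10. DN-only regions (n = 826) vary from 7.38 to 12.5% around the grey line at 10%. Regions of all 4 lists (n = 1682) are highest in parts 1 and 2.

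For a minority of genes with a DP-only region inside, the start (the 5′ end of the span) was held by both DP lists alone. A list held a start when any region with its midpoint within 1000 bp had a peak of that list. A start held by more lists can thus still have a DP-only region near it. Of 1737 genes with a DP-only region inside and a known strand, all 4 lists held the start in 410 (23.6%). Both DP lists and 1 DN list held it in 281 (16.2%), both DP lists alone in 240 (13.8%) and none in 578 (33.3%). Among 13506 genes over 2 kb without a DP-only region inside, the shares were 24, 12.1, 9.92 and 43.6% in the same order. Both DP lists alone held the start in 4.01% of the 649 genes with a DN-only region inside. Both DN lists but not both DP lists held it in 8.32% of them, against 1.32% of the genes with a DP-only region. As the counts above show, not every gene had an annotated start at a span end.

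The 15 genes with the most DP-only regions inside held 119 of them and were mostly long. They are the 14 genes with 7 or more and, of 11 genes tied at 6, the densest, Cd247. Gse1, which encodes a subunit of a corepressor complex, held the most, with 14 in a span of 353 kb (chr8:120228501-120581383). The 4 lists had 5, 0, 19 and 30 peaks inside it, in the order DN 1, DN 2, DP 1, DP 2. A list can hold more than 1 peak in a region, and of the 23 merged regions inside Gse1 the lists held 4, 0, 18 and 22. The 14 regions were 500 to 1050 bp wide and spaced by 4.38 to 74.9 kb, and the nearest DN peak was a median of 27.4 kb away. The number was 9 when each list was cut to its better-ranked 50%, and 17, 14, 19 and 15 without DN 1, DN 2, DP 1 and DP 2.

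Kinases of the T cell receptor pathway stood among these 15 genes. Fyn, a Src family kinase that acts at the receptor, held 9 regions in 196 kb (chr10:39369743-39565381), and the lists had 4, 2, 15 and 11 peaks inside it. Its start was held by all 4 lists, its regions lay 1.88 to 151 kb from the start, and 1 DN-only region lay in it as well. With the better-ranked 50% of each list the number in Fyn was 3. Prkch, which encodes protein kinase C eta, also held 9 in 193 kb (chr12:73584796-73778185) with 6, 5, 16 and 19 peaks. A group of 5 lay together, from chr12:73593201 to chr12:73612250, with a DN-only region among them. Cd247, the zeta chain of the receptor complex, held 6 in 91.2 kb (chr1:165779952-165871153) with 6, 3, 15 and 19 peaks. Its density, 6.58 per 100 kb, is what placed it among the 15. It held 12 without DP 1 and 9 without DN 1.

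The other genes with the most regions were of mixed function. Arid1b, a subunit of the BAF chromatin remodelling complex, held 9 with 9, 1, 24 and 25 peaks in the 4 lists. Pde10a, a cyclic nucleotide phosphodiesterase, held 8 with 6, 2, 15 and 13. St8sia1, a sialyltransferase of gangliosides, held 7 with 8, 3, 17 and 25. Zmiz1, a coactivator of Notch1 in T cells, held 7 with 2, 2, 13 and 12. In each of these the DP lists had the higher counts, as the choice of genes requires. The same number, 7 each, lay in Tbc1d22a, Itga9 (integrin alpha 9), Mad1l1 (a spindle checkpoint protein), Slc39a11 (a zinc transporter), Cacna1d (a calcium channel subunit) and Lpp, where the DN lists had 0 to 6 peaks and the DP lists 9 to 21. Leaving out single lists moved most of these numbers. Without DP 1 they were 17 in Arid1b and Itga9, 14 in Tbc1d22a and Slc39a11, 13 in Mad1l1, 12 in St8sia1 and Cacna1d and 11 in Zmiz1. Without DP 2 they were 12 in Mad1l1 and Zmiz1, and without DN 1 they were 14 in Arid1b and 11 in Tbc1d22a. With the better-ranked 50% of each list they were 5 in Arid1b, 4 in St8sia1 and 3 in Pde10a, Zmiz1 and Lpp.

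Sox5 depended most on single lists. This gene of a SOX transcription factor, with a span of 954 kb, held 8 regions and had 7, 2, 26 and 55 peaks. Without DP 1 its number was 46, and without DP 2 it was 21. Summed over the 15 genes, the lists held 72, 23, 235 and 311 peaks, or 18.6, 6.94, 59.2 and 44.2 per 10000 peaks of the list. DN 2 had no peak in 4 of them, and both DP lists exceeded both DN lists in 15 of 15, in genes chosen for that.

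**Figure D3:**
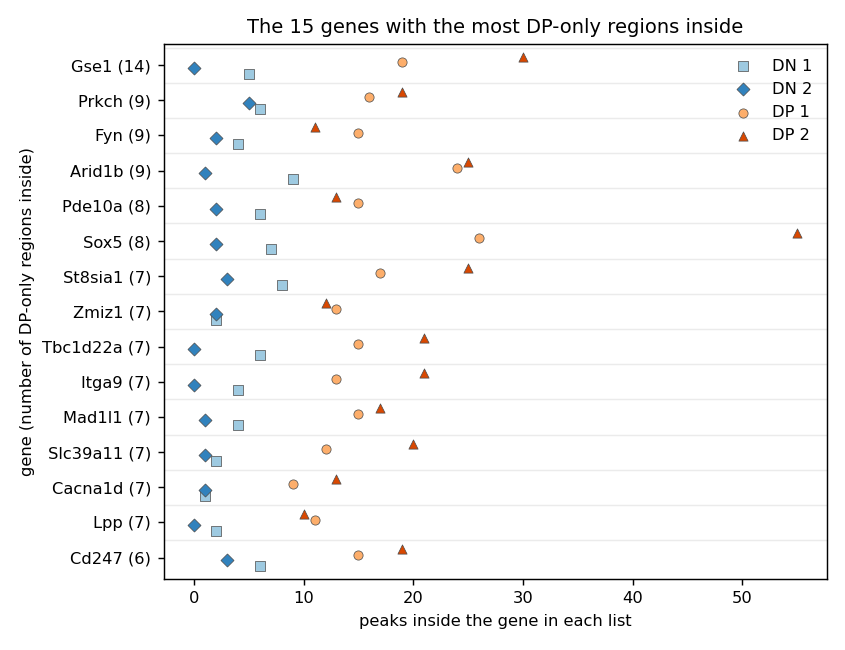
Peaks in the 15 genes with the most DP-only regions inside. Each row is a gene, with its number of DP-only regions in parentheses, and each symbol gives the number of peaks inside it in 1 list; the DN symbols lie between 0 and 9 and the DP symbols between 9 and 55, with DP 2 in Sox5 the highest.

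**Figure D4:**
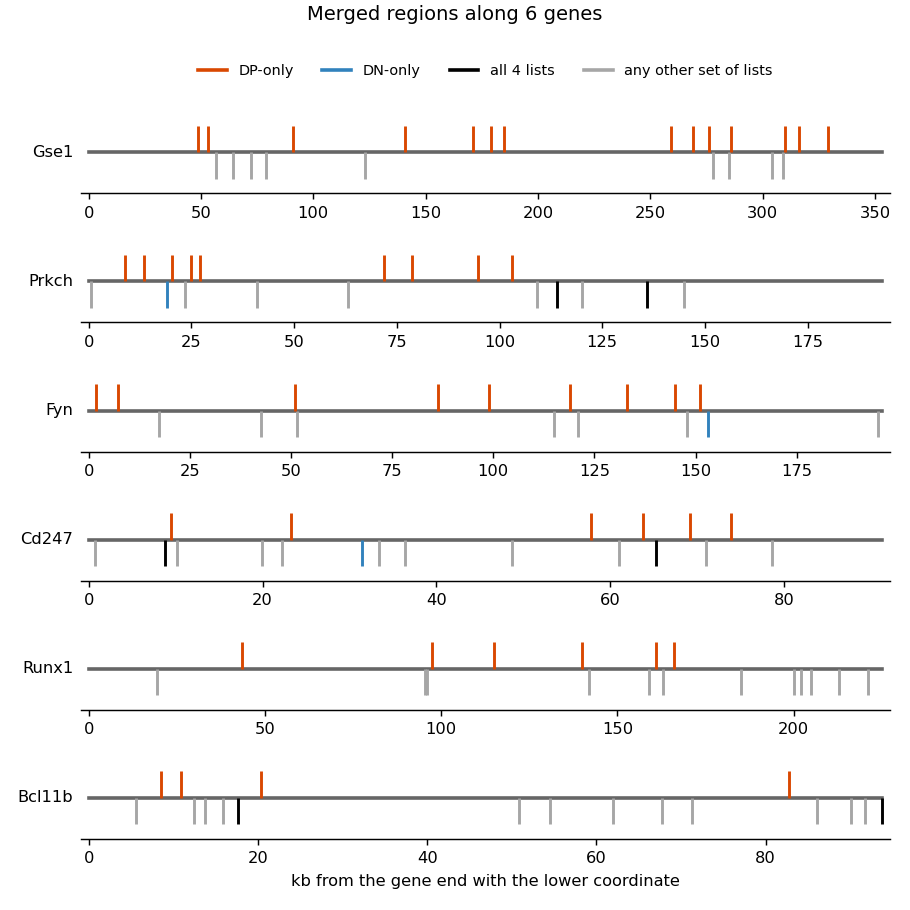
Merged regions along 6 genes. Each line is a gene span in kb from its end with the lower coordinate; upward orange ticks are DP-only regions (14, 9, 9, 6, 6 and 4 in Gse1, Prkch, Fyn, Cd247, Runx1 and Bcl11b), and downward ticks are DN-only regions in blue, regions of all 4 lists in black and all others in grey, which lie between the DP-only ones in each gene.

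Short genes with several regions included Cd8b1, the beta chain of CD8. It held 3 regions in 14.7 kb (chr6:71322788-71337492), 20.4 per 100 kb, and the lists had 0, 0, 6 and 4 peaks inside it. The regions lay at chr6:71324801-71325700, chr6:71332951-71333550 and chr6:71333701-71334300, and the nearest DN peak was at least 7.35 kb from each. The same number, 3 each, was found in Ldb1 (an adaptor of LIM factors; 1, 1, 4 and 5 peaks), Gpr132 (a G protein-coupled receptor; 1, 0, 4 and 4) and Mgat1 (the enzyme that starts complex N-glycans; 1, 0, 5 and 4). Septin1, Endou and Gnai2 (the inhibitory G protein subunit of chemokine receptors) had no DN peak inside and 3 to 5 peaks in each DP list. These genes were chosen for their density and are 14.7 to 21.3 kb long.

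Genes were then grouped by role, and each group is given beside the 11.4% of all genes over 2 kb that held a DP-only region. A DN-only region lay in 4.43% of all genes over 2 kb. The groups differ in gene length and were put together with results of these data known, so nothing is called particular to them. Among T lineage transcription factors, 16 of 26 genes (61.5%) held 45 regions, 11.3 per Mb of span. None held a DN-only region, which for 26 genes is near the 4.43% of all genes. Per 10000 peaks of each list, 17.3, 9.96, 39.6 and 25.4 peaks lay inside them in DN 1, DN 2, DP 1 and DP 2. The 16 genes became 22 without DP 1, when the share over all genes rose to 28.4%.

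Runx1, a RUNX factor that acts at Cd4 and at receptor enhancers, held 6 regions between 58.6 and 181 kb from its start. The lists had 3, 0, 11 and 18 peaks inside it. Its strongest region (chr16:92741101-92741900) had p-values of 2.59e-06 in DP 1 and 2.84e-05 in DP 2. The number was 13 without DP 1. Foxp1, a forkhead factor of T cell quiescence, also held 6 with 6, 8, 24 and 22 peaks. Bcl11b, needed for T cell commitment, held 4 with 5, 1, 12 and 15 peaks. Of the 4, 3 lay at the far end of the gene, 73.4 to 85.2 kb from its start, and 1 lay 10.9 kb from it. Its number was 10 without DP 1 and 7 without either DN 1 or DP 2.

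Lef1 and Ikzf1 held 4 regions each. In Lef1 the first lay at the internal start shown above and the others 47.3 to 66.1 kb from the gene start, and the lists had 3, 2, 7 and 10 peaks inside the gene. In Ikzf1 both internal starts given above lay in regions, the other regions lay 31.8 and 52.1 kb from the gene start, and the lists had 3, 1, 8 and 9 peaks. Satb1 held 3, all in the first 20 kb, with 1, 0, 7 and 10 peaks, and 8 without DP 1. Ets1 held 3 with 4, 2, 11 and 10 peaks, 6 without DP 1. Tcf7, which encodes TCF-1, held 2 with 1, 0, 7 and 4 peaks, and 5 without DP 2. Among factors with none were Gata3 (5, 2, 4 and 6 peaks), where all 4 lists held 2 of the 7 regions inside, and Tcf12 (1, 0, 0 and 1) and Ets2 (0, 0, 0 and 1), where the lists held almost no peaks inside the gene.

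Of genes for coreceptors, CD3 chains and surface receptors, 12 of 24 (50%) held 24 regions, 33.0 per Mb. The lists had 25, 10, 57 and 67 peaks inside them. Cd4 held 2 regions with 1, 0, 4 and 2 peaks, at chr6:124879251-124879900 and chr6:124885051-124885650. Cd8a held 1 with 0, 0, 1 and 1, which was lost at 2500 bp from span ends, and its start was held by both DP lists alone. Slamf1, an adhesion receptor of DP cells, held 2 with 1, 0, 2 and 4 peaks. Itga4, the integrin alpha 4 chain, held 2 with 1, 0, 2 and 4. The CD3 chain genes Cd3d, Cd3e and Cd3g held none, with at most 1 peak in any list, and neither did Cd28 (3, 0, 2 and 4) or Ctla4 (1, 0, 2 and 1). A DN-only region lay in 2 of the 24 genes (8.33%), against 4.43% of all genes.

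Of 22 genes of proximal receptor signalling, 13 (59.1%) held 31 regions, 17.8 per Mb. A DN-only region lay in 3 of them (13.6%), against 4.43% of all genes. By DP-only regions, after Fyn came Nck2, an adaptor to the cytoskeleton, with 5 (9, 2, 11 and 15 peaks). Sla, an adaptor that lowers receptor levels on DP cells, held 4 (4, 1, 10 and 13) and the phosphatase Ubash3b 3 (2, 1, 7 and 6). The regions of Sla lie in the span of the thyroglobulin gene Tg as well. Themis, which tunes receptor signals in DP cells, held none, with 2, 1, 1 and 4 peaks inside. The group's count was 9 with the better-ranked 50% of each list, when the share over all genes was 8.57%.

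Of 25 Ras, calcium and protein kinase C genes, 10 (40.0%) held 34 regions, 11 per Mb. After Prkch came Nfatc1, a calcium-driven factor, with 5 regions (1, 1, 8 and 10 peaks), and Dgkz, which removes diacylglycerol, with 5 in 43.6 kb (0, 0, 6 and 6). Nfatc3 and Itpkb held 3 each, with 0, 0, 5 and 7 peaks in Nfatc3 and 9, 4, 15 and 12 in Itpkb. The best Nfatc3 p-values were 1e-12 in DP 1 and 3.25e-07 in DP 2. Itpr1, an inositol trisphosphate receptor, held 3 DP-only and 3 DN-only regions with 13, 6, 8 and 13 peaks. The count of genes was 16 without DN 1 and 16 without DP 1, when the shares over all genes rose from 11.4% to 16.0 and 28.4%. Of 12 NF-kB genes, 4 (33.3%) held 8, led by Nfkb1 with 3.

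Survival genes and cytokine pathway genes were also found. Of 17 survival genes, 10 (58.8%) held 15 regions, 21.4 per Mb. Bcl2l1, which encodes the survival protein BCL-XL of DP cells, held 3 with 4, 2, 9 and 9 peaks, and Bcl2l11 held 2 with 2, 0, 3 and 6. The count of survival genes was 6 with a distance of 2500 bp from span ends, when the share over all genes fell to 9.70%. Of 26 genes of cytokine and chemokine receptors and JAK-STAT signalling, 10 (38.5%) held 18. Il4ra and Stat5b held 3 each with no DN peak inside, 3 and 5 DP peaks in Il4ra and 7 and 3 in Stat5b. The best Il4ra p-values were 2.81e-07 in DP 1 and 1e-12 in DP 2. Il2ra, the CD25 gene used to sort the DN cells, held 2 DP-only regions with 4, 0, 6 and 4 peaks. DN 2 had no peak in the gene, and the number was 4 without DN 1 and 4 without DP 2.

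Of 14 genes listed for the Notch pathway, 6 (42.9%) held 14 regions, led by Maml3, a Notch coactivator, with 5 (7, 2, 18 and 22 peaks). These counts include Igf1r with 4 (3, 0, 7 and 13), which encodes a growth factor receptor and not a part of the Notch pathway. Of 21 cell cycle genes, 5 (23.8%) held 14, namely Ccnd3 with 5 (4, 2, 10 and 12 peaks), E2f2 and Cdk6 with 3 each, Ccnd2 with 2 and E2f3 with 1. The count of genes was 8 without DN 1, when the share over all genes was 16.0%. Among the genes with none were Ccnd1, Cdk4, E2f1, Cdk1, Ccnb1, Top2a and Pcna. Of 36 chromatin regulators, 16 (44.4%) held 32, with Arid1b first. Of 13 V(D)J recombination genes, 2 (15.4%) held a region, near the share over all genes. These were Rag1 (0, 0, 3 and 2 peaks) and Rag2 (0, 0, 1 and 1), the recombinase genes, with 1 region each, and their starts were held by all 4 lists. The Rag1 region was lost with the better-ranked 50% of each list and the Rag2 region at 2500 bp from span ends, which left 1 gene in either case. The group's count was 4 without DN 1, 7 without DP 1 and 4 without DP 2. The share over all genes rose from 11.4% to 16.0, 28.4 and 20.4% in the same order.

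Genes of early progenitors and other lineages held regions too. Of 16 progenitor genes, 4 (25%) held 6 regions, with 32, 16, 21 and 37 peaks inside them. A region lay in 3 of 10 B cell genes (Pax5, Ebf1 and Blk; 30%) and in 3 of 10 NK and innate lymphoid genes (Eomes, Nfil3 and Zbtb16; 30%). The progenitor, B cell and NK shares were thus above the 11.4% of all genes, and no difference between groups was tested. A region lay in 1 of 8 myeloid (12.5%), 1 of 10 stromal (10%), 0 of 6 erythroid and 1 of 14 housekeeping genes (7.14%). With the better-ranked 50% of each list, no B cell gene held one, and at 2500 bp from span ends 1 NK gene did. Progenitor genes numbered 8 without DP 1 and 7 without DP 2, B cell genes 5 without DP 1 and stromal genes 4 without DP 2, when the shares over all genes were 28.4 and 20.4%.

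Long neuronal genes went the other way. Their median span was 1330 kb, and 7 of 20 (35.0%) held 7 regions, 0.238 per Mb, whereas 17 of 20 (85.0%) held 52 DN-only regions. Of all genes over 2 kb, 4.43% held a DN-only region. Of all genes over 200 kb, 36.2% held a DP-only region, so the 35.0% was near the share for long genes. Per Mb, genes over 200 kb had 1.75 DP-only and 1.36 DN-only regions, against 0.238 and 1.77 in the neuronal genes. Their DN-only density was thus nearer to that of long genes than their DP-only density. The lists had 561, 668, 199 and 704 peaks inside the neuronal genes, or 145, 202, 50.1 and 100 per 10000 peaks. DP 1 was the lowest on either scale. The count with a DP-only region was 1 with the better-ranked 50% of each list, and 20 without DP 1 or without DP 2. The share over all genes, 11.4% in the main setting, was then 8.57, 28.4 and 20.4%. Macrod2 held 1 DP-only and 10 DN-only regions.

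**Figure D5:**
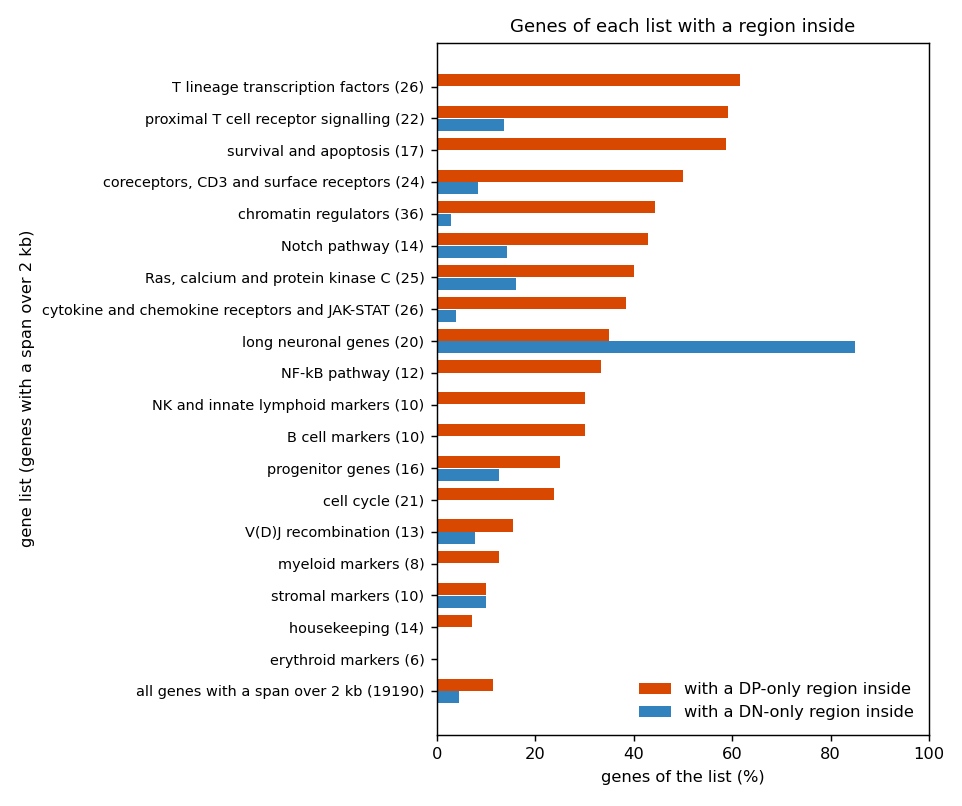
Share of genes with a region inside, by role. Bars give the percent of each list's genes over 2 kb (number in parentheses) that hold at least 1 DP-only region (orange) or DN-only region (blue); T lineage transcription factors have the highest orange bar (61.5%, no blue bar), long neuronal genes are the 1 list with a longer blue than orange bar (85.0 against 35.0%), and all genes stand at 11.4 and 4.43%.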

How the data were processed

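Each of the 4 samples has 1 deposited peak list with chromosome, start, end, name and a p-value per peak, which is the authors' own value. Per the submitters' processing notes, Bowtie2 and Picard were among the tools and mm10 was the build; roles are not given. The peak caller is known only from the name PeakDEck in the list names. The sources used here give neither its settings nor read filters or shifts of the cut sites. Here the p-values served to rank each list's own peaks. Peaks of 1 list can share bases, and merging within a list left 35125, 30131, 35224 and 62582 regions in DN 1, DN 2, DP 1 and DP 2. No list was a copy of another, with 1.32 to 6.25% of the shorter list's peaks identical in the other.

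Peaks were merged with Python 3.11.15, numpy 2.4.6 and pandas 2.3.3 and placed in the spans of 21631 RefSeq genes, and the steps were tested on simulated data. That table has no strand or exons, so strand came from the promoter table for 17274 genes, and exons, introns and UTRs were not told apart. The members and gene lists were chosen with earlier results of these data known. Genes named are the 15 with the most regions, the 8 densest with 3 or more, the 8 best-ranked and 3 widest regions, up to 5 genes per list, list genes without regions and 17 always named. Some genes under this rule, and 1 gene list, are not reported here. Alternatives were the better-ranked 50% of each list, equal list lengths, 50% overlap of DP peaks, merging within 250 bp, distances of 500 and 2500 bp, and leaving out each list. Coordinates are counted from 1.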

Additional observations from a re-analysis of the deposited data

How the results depend on the processing

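The number of DP-only regions inside genes (3207), of genes with one (2179) and the share of DP-only regions inside genes (40.1%) were recomputed under each alternative. Leaving out 1 list gave 3570 to 16984 regions, 2387 to 5457 genes and shares of 38.2 to 39.8%. The better-ranked 50% of each list gave 2232 regions in 1645 genes and a share of 36.5%, lists limited to the shortest length 2450 in 1755 and 38.7%, a distance of 500 bp from span ends 43.5% and one of 2500 bp 35.1%. These 2 distances, 50% overlap and merging within 250 bp gave 2809 to 3485 regions. The DP minus DN difference in the share of peaks inside genes was 3.63 points, 1.38 with the better-ranked 50%, 2.76 with equal lengths, 4.44 and 2.84 at 500 and 2500 bp, and 1.77 to 5.49 without 1 list. The labels name no source that same-numbered lists share, and with the replicate number as a replicate block the difference was 3.63 points (exact sign-flip p = 0.500, the smallest that 2 pairs allow). Of 39 named genes, the count of regions stayed within 1.5 times in 19 without DP 1, 29 without DP 2, 33 without DN 1, 39 without DN 2 and 28 with the better-ranked 50%. Depth is unknown, so absence from a DN list is not evidence that a site is closed.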

Other observations

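The RefSeq table places 6 miRNA hairpins in DP-only regions inside genes: Gm51287 in F5, Mir6999 in Dgkz, Mir7045 in Chd4, Mir7050 in Fxyd5, Mir7687 in Gse1 and Mir1943 in Tmem184b. The Gse1 hairpin (chr8:120538696-120538754) lies in a region of 650 bp with p-values of 3.36e-05 in DP 1 and 6.57e-05 in DP 2. The Dgkz hairpin (chr2:91944870-91944930) lies in a region with 3.36e-05 and 4.58e-05. No value for these RNAs was measured.

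Of the 202 genes that held both a DP-only and a DN-only region inside, Prkch, Fyn, Zmiz1 and Cd247 held 9, 9, 7 and 6 DP-only regions and 1 DN-only region each. Slc8a1, a sodium-calcium exchanger, held 2 DP-only regions and 5 DN-only ones. The 4 lists (DN 1, DN 2, DP 1, DP 2) had 12, 10, 8 and 29 peaks inside it. Itpr1 held 3 of each class.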
